A study of Mus musculus with 380 samples.

Results

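Cytotoxic granules were followed through 10 genes, chosen by name: the granzyme genes Gzma, Gzmb, Gzmc, Gzmk and Gzmm, the perforin gene Prf1, and Nkg7, Ctsw, Srgn and Cst7. All 10 were found among the 23420 gene symbols of the expression table. They were measured in single T cells from B16F10 tumours, a transplanted mouse melanoma, of C57BL/6 mice. The labels give the genotype as IL27raKO or wild type, and Il27ra encodes a chain of the receptor for the cytokine interleukin-27. The 4 plates were KO-labelled CD4, WT CD4, KO-labelled CD8 and WT CD8, each with 94 single cells and 1 population well, a library that pools many cells. The titles carry 1 code for each genotype (KO4 and WT4), and no label gives an age, a further treatment or the number of mice. The treatment text speaks of CD8+ cells alone although the titles of 2 plates say CD4, and the WT CD4 titles carry p2 where the others carry p1.

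Killer lymphocytes store granzymes, a family of serine proteases, and the pore-forming protein perforin in secretory granules. On contact with a target the granules fuse with the membrane, perforin opens the way and the granzymes cleave proteins inside the target, which can die. Serglycin, encoded by Srgn, is the proteoglycan that holds the granule contents, Nkg7 is a granule membrane protein needed for efficient granule release in mice, Cst7 encodes cystatin F, an inhibitor of the cathepsins that activate granzymes, and Ctsw encodes cathepsin W, a cysteine protease of cytotoxic lymphocytes. Regulatory CD4 T cells, which carry the transcription factor Foxp3, are known to be able to express granzyme B.

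The promoters of the 4 genes that most of the CD8 results turn on are printed. Of them 3, Gzmb, Prf1 and Nkg7, were detected together in CD8 cells of both plates. The fourth, Gzmk, was detected in most of those cells on the WT plate only. Each sequence is the 250 bases before the RefSeq start (GRCm38.p6), 5′ to 3′ on the strand of the gene. Capitals mark the Runx core TGTGGT, the AP-1 site TGANTCA and the cyclic AMP response element TGACGT, each searched on both strands, so that ACCACA is the Runx core on the other strand. The windows are chr14:56262335-56262584 for Gzmb (minus strand), chr10:61297586-61297835 for Prf1 (plus strand), chr7:43436888-43437137 for Nkg7 (plus strand) and chr13:113180966-113181215 for Gzmk (minus strand).
Gzmb: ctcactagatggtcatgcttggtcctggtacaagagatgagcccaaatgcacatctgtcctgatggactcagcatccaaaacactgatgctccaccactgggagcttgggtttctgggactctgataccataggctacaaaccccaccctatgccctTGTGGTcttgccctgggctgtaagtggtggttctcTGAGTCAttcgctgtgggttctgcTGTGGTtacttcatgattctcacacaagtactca
Prf1: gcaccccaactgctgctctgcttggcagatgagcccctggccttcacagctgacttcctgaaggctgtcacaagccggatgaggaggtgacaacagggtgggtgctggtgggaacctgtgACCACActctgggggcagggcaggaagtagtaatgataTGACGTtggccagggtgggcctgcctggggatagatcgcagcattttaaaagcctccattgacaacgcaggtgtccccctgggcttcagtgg
Nkg7: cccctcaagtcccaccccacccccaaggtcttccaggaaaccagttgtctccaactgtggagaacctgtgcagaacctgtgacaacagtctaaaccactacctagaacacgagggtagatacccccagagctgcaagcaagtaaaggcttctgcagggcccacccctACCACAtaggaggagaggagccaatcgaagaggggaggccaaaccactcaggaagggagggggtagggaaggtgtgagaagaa
Gzmk: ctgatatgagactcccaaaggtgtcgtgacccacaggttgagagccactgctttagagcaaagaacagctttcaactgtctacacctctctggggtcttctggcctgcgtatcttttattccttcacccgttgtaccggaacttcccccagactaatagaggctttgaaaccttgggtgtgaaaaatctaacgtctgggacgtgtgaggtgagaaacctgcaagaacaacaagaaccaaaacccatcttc

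The Gzmb window holds the Runx core beginning 93 and 34 bases before the start and the AP-1 site beginning 58 bases before it. In the Prf1 window the Runx core begins 130 bases and the cyclic AMP response element 92 bases before the start, and in the Nkg7 window the Runx core begins 83 bases before it. None of these 3 motifs is in the Gzmk window. A window was found for 9 of the 10 genes, with 11 windows in all because Srgn and Gzmm have 2 each. The Runx core was in a window of 8 of the 9 genes, and in 14.05% of the 32851 RefSeq windows of this length. The AP-1 site was in 1 of the 9 genes (6.75% of all windows) and the cyclic AMP response element in 3 of the 9 (6.47%). The Ets core CAGGAA, which is not capitalised, was in 4 of the 9 genes (25.7% of all windows), and the T-box core GGTGTGA in 3 of the 9 (3.33%), among them Gzmk at 75 and Nkg7 at 13 bases before the start. These matches are letters in a window, with no binding data in the series.

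Positions are those of GENCODE M21 for GRCm38, the build named mm10 in the submitters' processing notes. Gzmb lies on chromosome 14 at 56258838 to 56262260 and Gzmc at 56231441 to 56234656, both on the minus strand and 24.2 kb apart in a cluster that also holds Gzmd, Gzme, Gzmf, Gzmg and Gzmn. Gzma lies on chromosome 13 at 113093825 to 113100981 and Gzmk at 113171608 to 113225908, both on the minus strand and 70.6 kb apart. Prf1 (61297833 to 61304680, plus strand), Srgn (62493833 to 62527451, minus strand) and Gzmm (79689020 to 79695261, plus strand) lie on chromosome 10. Nkg7 lies on chromosome 7 at 43437073 to 43438249 (plus strand), Ctsw on chromosome 19 at 5465043 to 5468507 (minus strand) and Cst7 on chromosome 2 at 150570415 to 150578944 (plus strand). Values are summed over a whole gene, so exons and untranslated regions are not told apart. The RefSeq starts used for the promoters differ from these gene ends for some members, such as Gzmb, Nkg7 and Gzmk.

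Cells entered with 1000 or more genes above 1 FPKM (fragments per kilobase of transcript, relative to library size and scaled between libraries by TMM factors), and a gene above 1 FPKM in a cell is called detected. This left 73 KO-labelled CD4, 79 WT CD4, 80 KO-labelled CD8 and 72 WT CD8 cells out of 94 on each plate, with medians of 2218, 2045, 2508 and 3168 genes per cell in that order. Read numbers were not estimated here, and the number of genes detected stands in for the yield of a cell. Cd4 was detected in 84.9% and 89.9% of KO-labelled and WT CD4 cells and in 0 of 80 and 4 of 72 KO-labelled and WT CD8 cells, where 0 of 80 leaves room for up to 3.75%. The shares with Cd8a were 4.11% and 5.06% of KO-labelled and WT CD4 cells and 90% and 84.7% of KO-labelled and WT CD8 cells. Il27ra, the targeted gene, was still detected in both KO-labelled groups, with shares of 47.9% (KO label) and 43.04% (WT) in CD4 cells and of 61.25% (KO label) and 65.3% (WT) in CD8 cells, so the groups are called KO-labelled and directions are drawn between labels. A single KO-labelled CD8 cell had Cd3e and Cd8b1 at 0, Cd8a at 3.98 FPKM and the natural killer receptor genes Ncr1 at 771, Klrb1c at 3120 and Klrd1 at 3207 FPKM. It goes against its label as a CD8 T cell and was the highest cell of its plate for Gzma and Prf1, so the CD8 differences are also given without it. Each group is 1 plate, so genotype, mouse and plate cannot be told apart, no test was run, and the 95% intervals on shares (exact Clopper-Pearson) cover counting error between cells only.

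Gzmb, which encodes the protease granzyme B, was the granzyme gene detected in the most cells of all 4 plates. Its FPKM had a lowest value of 0 on every plate. The median and highest values were 0 and 14817 FPKM in KO-labelled CD4, 0 and 21682 in WT CD4, 0 and 15193 in KO-labelled CD8 and 1001 and 10425 in WT CD8 cells. Gzmb was off in most cells and high in the rest on 3 plates, and on in most cells only on the WT CD8 plate. The share of cells with Gzmb was 45.2% in KO-labelled CD4 (interval 33.5 to 57.3), 25.3% in WT CD4 (16.2 to 36.4), 40% in KO-labelled CD8 (29.2 to 51.6) and 70.8% in WT CD8 cells (58.9 to 80.95). In this order of shares the interval of WT CD8 cells, the highest, stood apart from the others, while those of KO-labelled CD4 and KO-labelled CD8 cells, and of KO-labelled CD8 and WT CD4 cells, overlapped. The detected cells had a median of 3474 FPKM on the KO-labelled CD4 plate and of 510 on the WT CD4 plate, against 721 on the KO-labelled and 1681 on the WT CD8 plate, so this median was highest in the KO-labelled CD4 cells that carried Gzmb. The population wells gave 4375, 556, 3071 and 6407 FPKM for KO-labelled CD4, WT CD4, KO-labelled CD8 and WT CD8. In a well, fewer cells that express a gene and less RNA of it per cell cannot be told apart.

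Gzmk, whose product is a trypsin-like granzyme, was a gene of the WT CD8 plate. Among CD4 cells 1 of 73 had it under the KO label and 6 of 79 in WT. Among CD8 cells the share was 15% under the KO label (interval 7.998 to 24.7) and 54.2% in WT (42.004 to 65.98). The median and highest values were 0 and 1541 FPKM in KO-labelled CD8 cells and 108.98 and 2829 FPKM in WT CD8 cells, with a lowest value of 0 in both. The wells had 2.60 and 33.6 FPKM for KO-labelled and WT CD4 and 198.96 and 661 FPKM for KO-labelled and WT CD8, in the same order as the cells.

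Gzma, Gzmc and Gzmm were rare, and single cells decided their means. Gzma, whose product granzyme A is a tryptase, was detected in 3 of 73 KO-labelled CD4 cells, 9 of 80 KO-labelled CD8 cells and 8 of 72 WT CD8 cells, and in 0 of 79 WT CD4 cells, a count that leaves room for up to 3.80%. The KO-labelled CD8 cell with Ncr1 and without Cd3e had 45783 FPKM of Gzma, 80.5% of the sum over that plate. The next cell had 3555 FPKM. The wells held 1065.49 and 0 FPKM of Gzma for KO-labelled and WT CD4, and 492.28 and 139.19 for KO-labelled and WT CD8. The KO-labelled CD4 well was thus the highest for Gzma, against a mean of 115.3 FPKM in the cells of that plate. Both CD8 wells lay below the means of their cells, 711.3 (KO-labelled) and 165.1 FPKM (WT). The reason was not tested. Gzmc was detected in 5 KO-labelled and 1 WT CD4 cells and in 6 KO-labelled and 3 WT CD8 cells, yet the WT CD8 well held 5126 FPKM of it against a mean of 11.9 FPKM in the single cells of that plate. The KO-labelled CD8 well held 785 FPKM of Gzmc and the CD4 wells 13.2 (KO-labelled) and 0 (WT), so this gene was far higher in both CD8 wells than in the cells sampled from those plates. Gzmm was detected in 1 cell on each CD4 plate, in 4 KO-labelled CD8 cells and in 2 WT CD8 cells.

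The other granzyme genes of the Gzmb cluster, Gzmd, Gzme, Gzmf, Gzmg and Gzmn, were each detected in at most 3 cells of a plate, and 0 of the 5 reached the 10% of cells needed to enter a comparison. Gzmf reached 15882 FPKM in 1 KO-labelled CD8 cell, and the CD8 wells held 1879 (KO-labelled) and 446 FPKM (WT) of it. Gzmb and Gzmc transcripts are 76.7% identical, with a longest shared run of 49 bases, so reads from such runs can be divided between these genes by the counting and low values of Gzmc are uncertain.

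Prf1, the perforin gene, was found mostly in CD8 cells. Among CD4 cells the share with Prf1 was 9.59% under the KO label (interval 3.94 to 18.8) and 5.06% in WT (1.40 to 12.5). Among CD8 cells it was 43.75% under the KO label (32.7 to 55.3) and 62.5% in WT (50.3 to 73.6). Its median and highest values were 0 and 1280 FPKM in KO-labelled CD4, 0 and 1261 in WT CD4, 0 and 11142 in KO-labelled CD8 and 161.6 and 13673 in WT CD8 cells. The 11142 is the cell with Ncr1 and without Cd3e. The wells held 199.2 and 38.9 FPKM of Prf1 for KO-labelled and WT CD4, and 1271 and 2612 for KO-labelled and WT CD8. The perforin and granzyme B genes differed within CD4 cells: the KO-labelled CD4 plate had Gzmb in 33 cells and Prf1 in 7, 6 of which also had Gzmb.

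Nkg7 was the member of highest mean on both CD8 plates and was found in CD4 cells too. Its share was 27.4% under the KO label (interval 17.6 to 39.1) and 45.6% in WT (34.3 to 57.2) among CD4 cells, and 91.25% under the KO label (82.8 to 96.4) and 83.3% in WT (72.7 to 91.1) among CD8 cells. The medians were 0 on both CD4 plates, 2077 FPKM in KO-labelled and 3382 FPKM in WT CD8 cells, with highest values of 11175, 9258, 17580 and 13642 FPKM in KO-labelled CD4, WT CD4, KO-labelled CD8 and WT CD8 cells. Ctsw had the same outline: it was detected in 28.8% and 36.7% of KO-labelled and WT CD4 cells and in 87.5% and 81.9% of KO-labelled and WT CD8 cells. The mean of Ctsw was 348.02, 305.6, 1212 and 663 FPKM in KO-labelled CD4, WT CD4, KO-labelled CD8 and WT CD8 cells. Among the CD8 plates it thus had its higher mean under the KO label, where Gzmb and Gzmk had their lower one.

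Srgn was the only member detected in most cells of every plate and the one of highest mean on both CD4 plates. It was detected in all 73 KO-labelled CD4 cells, in 82.3% of WT CD4 cells, and in 87.5% of KO-labelled and 81.9% of WT CD8 cells. The median and highest values were 2378 and 9727 FPKM in KO-labelled CD4, 1075 and 15558 in WT CD4, 836 and 5639 in KO-labelled CD8 and 796 and 3319 in WT CD8 cells, and the lowest value was 0 on each plate but the KO-labelled CD4 plate. Cst7 was detected in 19.2% and 22.8% of KO-labelled and WT CD4 cells and in 58.75% and 66.7% of KO-labelled and WT CD8 cells, with wells between 582 FPKM (WT CD4) and 884 FPKM (WT CD8).

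**Figure D1:**
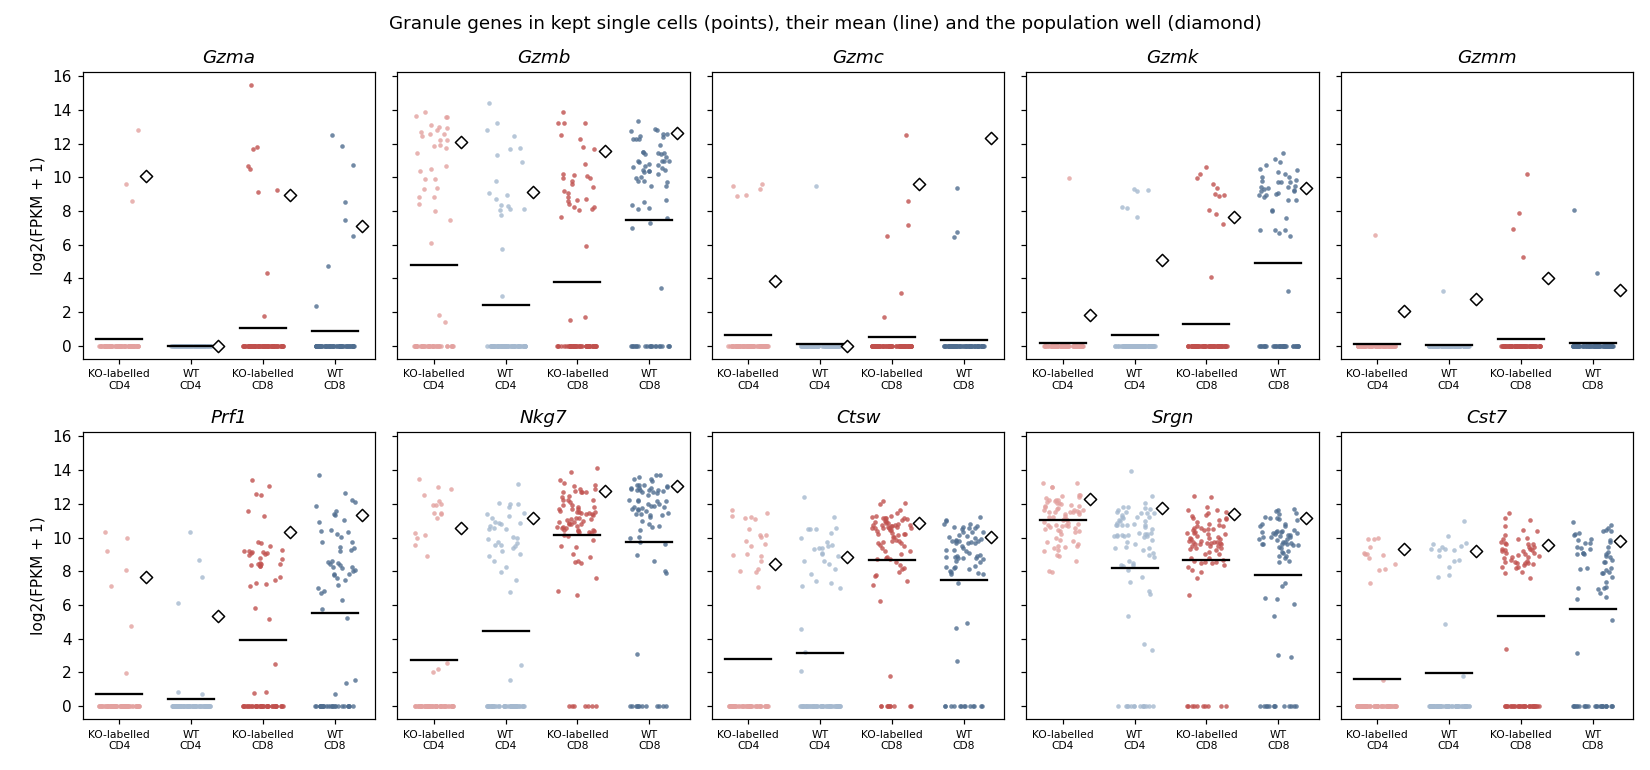
Level of each granule gene, as log2(FPKM + 1) on the vertical axis, in the kept cells of the KO-labelled CD4, WT CD4, KO-labelled CD8 and WT CD8 plates (points, 73, 79, 80 and 72 cells), with the mean over cells as a line and the population well as a diamond. Srgn is on in nearly all cells, Nkg7 and Ctsw in most CD8 cells, Gzmb is split into off and high on every plate, and the Gzmc diamond of the WT CD8 plate (5126 FPKM) stands far above its cells (mean 11.9 FPKM).

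The genotype comparison asks which granule genes differed between KO-labelled and WT cells of a lineage. In CD8 cells Gzmb, Gzmk and Prf1 were lower and Ctsw was higher in the KO-labelled cells by at least 1 on the scale of mean log2(FPKM + 1). Gzmb averaged 3.78 in KO-labelled and 7.44 in WT CD8 cells (difference -3.66), Gzmk 1.30 and 4.89 (-3.59), Prf1 3.92 and 5.52 (-1.60) and Ctsw 8.68 and 7.50 (1.19). Nkg7 (0.40), Srgn (0.88) and Cst7 (-0.42) were within 1, as were the 3 rare granzyme genes. So 3 of the 10 members were lower and 1 was higher, where 19.5% of the 6599 genes compared were lower and 3% higher. The median was 0.17 over the 10 members and -0.46 over all genes, in a comparison where the WT cells had more genes detected. Of the 10 members 7 passed the filter of 20% of cells that all genes compared had passed.

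Some of these differences moved with yield, cycling and the summary used. When cells of the 2 CD8 plates were paired on genes detected (46 pairs), Gzmb had -2.36 and Gzmk -2.79, but Prf1 had 0.74 and Ctsw 0.18. The wells gave -1.06 for Gzmb, -1.73 for Gzmk, -1.04 for Prf1 and 0.83 for Ctsw. Cells with at least 5 of 14 cell cycle genes made up 10% of KO-labelled and 43.1% of WT CD8 cells, and without them the difference was -1.88 for Gzmb, -1.23 for Gzmk and -0.17 for Prf1, while Nkg7 (1.85), Srgn (2.04) and Ctsw (1.66) were higher under the KO label by more than 1. The 9 natural killer markers also differed between the plates: 7 of the 9 were detected in at least 10% of KO-labelled and 3 of the 9 in WT CD8 cells, with a median summed level of 613 and 218.5 FPKM. CD8 T cells can express several of these genes, Klrd1 and Eomes among them. Without the 12 KO-labelled and 3 WT CD8 cells that had Ncr1 or Klrb1c, the difference was -3.62 for Gzmb, -3.78 for Gzmk, -1.71 for Prf1 and 0.87 for Ctsw, so that 3 members were lower and 0 higher. Without the single cell that lacked Cd3e and had Ncr1, it was -3.78 for Gzmb, -3.69 for Gzmk, -1.72 for Prf1 and 1.16 for Ctsw. The part of the other natural killer markers was not tested.

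In CD4 cells the directions were others: Gzmb and Srgn were higher and Nkg7 was lower under the KO label. Gzmb averaged 4.78 in KO-labelled and 2.44 in WT CD4 cells (difference 2.35), Srgn 11.03 and 8.18 (2.84) and Nkg7 2.75 and 4.42 (-1.67). Ctsw (-0.37), Cst7 (-0.33) and Prf1 (0.27) were within 1. Thus 2 of the 10 members were higher and 1 was lower, where 8.75% of the 4687 genes compared were higher and 1.51% lower, and the median was 0.16 both over the members and over all genes. Of the 10 members 5 passed the filter. The direction of Nkg7 turned with the summary: the log2 ratio of mean FPKM was 0.23, and the cells that had Nkg7 had a median of 2737 FPKM on the KO-labelled and 1020 on the WT CD4 plate. In the wells Gzmb (2.97), Srgn (0.56) and Nkg7 (-0.62) kept these signs, but Srgn and Nkg7 were within 1 there. By the ratio of mean FPKM Srgn had 0.97, also within 1.

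Between the lineages most members were lower in CD4 cells. Among WT cells Gzmb (2.44 in CD4, 7.44 in CD8), Gzmk (0.66 and 4.89), Prf1 (0.43 and 5.52), Nkg7 (4.42 and 9.74), Ctsw (3.17 and 7.50) and Cst7 (1.94 and 5.77) were lower in CD4 cells by 3.83 to 5.32 on the log2 scale. That is 6 of 10 members lower and 0 higher, where 37.2% of the 6524 genes compared were lower and 2.16% higher. The filter that all genes compared had passed was passed by 7 of the 10 members, among them all 6 that were lower. In the WT wells Cst7 (-0.60) was within 1, and the other genes of the 6 stayed lower by at least 1. In WT cells paired on genes detected (34 pairs), Gzmb had -3.73, Gzmk -2.79, Prf1 -3.55, Nkg7 -5.13, Ctsw -4.74 and Cst7 -2.42. The median over all genes was -0.76 before and -0.03 after this pairing. Among KO-labelled cells 5 of 10 were lower (Gzmk, Prf1, Nkg7, Ctsw and Cst7) and Srgn was higher, where 11.1% of 5286 genes were lower and 4.63% higher. Here 6 of the 10 members passed the filter. Gzmk did not pass it, so it is counted among the lower members but is not among the 5286 genes. Gzmb differed by 0.998 there, just short of 1, with 4.78 in KO-labelled CD4 and 3.78 in KO-labelled CD8 cells. Its direction was thus the opposite of that among WT cells, a difference that was not tested. Srgn had 11.03 in KO-labelled CD4 and 8.67 in KO-labelled CD8 cells. In the KO-labelled wells Srgn (0.91) and Cst7 (-0.27) were within 1. Each lineage comparison shares its plates with the genotype comparisons.

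Within single CD8 cells Gzmb, Prf1, Nkg7, Srgn and Cst7 went together on the WT plate and, with weaker and more uneven coefficients, on the KO-labelled plate, while Ctsw had low rank coefficients with all 5. Across the 80 KO-labelled and the 72 WT CD8 cells, Spearman's coefficient was 0.57 and 0.62 for Gzmb with Prf1, 0.50 and 0.73 for Gzmb with Nkg7, 0.47 and 0.73 for Nkg7 with Srgn, and 0.44 and 0.73 for Nkg7 with Cst7. The 10 pairs of these 5 genes, which were picked after their values were seen, had a median of 0.39 in KO-labelled and 0.65 in WT CD8 cells. They ran between 0.17 (Gzmb with Cst7) and 0.57 in KO-labelled and between 0.50 and 0.73 in WT CD8 cells. Ctsw, detected in more than 80% of both groups, had only -0.02 and 0.09 with Gzmb and -0.09 and 0.07 with Prf1, and at most 0.21 and 0.23 with any of the 5. This depended on the measure: Pearson's coefficient of log2(FPKM + 1), which weighs off against on, was 0.45 and 0.57 for Ctsw with Nkg7, 0.14 and 0.51 with Srgn and 0.23 and 0.38 with Cst7 in KO-labelled and WT CD8 cells. Over all 45 member pairs the median was 0.14 in KO-labelled and 0.12 in WT CD8 cells, against 0.06 and 0.19 for pairs of a member with 1 of 4691 other genes. By these coefficients, not adjusted for yield, the 10 members as a set did not go together more than other genes did on the WT plate.

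The cells of a plate share its preparation, and these coefficients also carry differences in yield between cells. Prf1 had a coefficient of 0.75 and Nkg7 of 0.68 with the number of genes detected in WT CD8 cells, and of 0.20 and 0.42 in KO-labelled CD8 cells. With that number held fixed (partial Spearman), the median over the 10 pairs was 0.31 in KO-labelled (-0.02 to 0.56) and 0.37 in WT CD8 cells (0.19 to 0.54). These pairs were picked after their values in the same cells were seen, so their median cannot be set against that of other genes. In cells with at least 2000 genes the median over the 10 pairs was 0.37 (66 KO-labelled cells) and 0.53 (59 WT cells). Over all 45 member pairs the partial median was 0.09 in KO-labelled and 0.04 in WT CD8 cells, above the 0.01 of members with other genes on both plates.

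Gzmk went with Gzmb more closely on the WT plate (0.65) than on the KO-labelled plate (0.28), a difference that was not tested. With the number of genes detected held fixed, the coefficient was 0.47 in WT and 0.29 in KO-labelled CD8 cells. In WT CD8 cells Gzmk then had 0.46 with Nkg7 and 0.17 with Srgn, but -0.07 with Prf1 and -0.03 with Cst7. All 39 WT CD8 cells with Gzmk also had Gzmb, and 0 of 72 had Gzmk without it, which leaves room for up to 4.17%. On the KO-labelled plate 8 of the 12 cells with Gzmk had Gzmb. Gzma had coefficients between -0.10 and 0.16 with the other members in KO-labelled and between -0.14 and 0.19 in WT CD8 cells, where its neighbour Gzmk had 0.08 and 0.05 with it. For genes as rare as Gzma, Gzmc and Gzmm such coefficients say little.

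**Figure D2:**
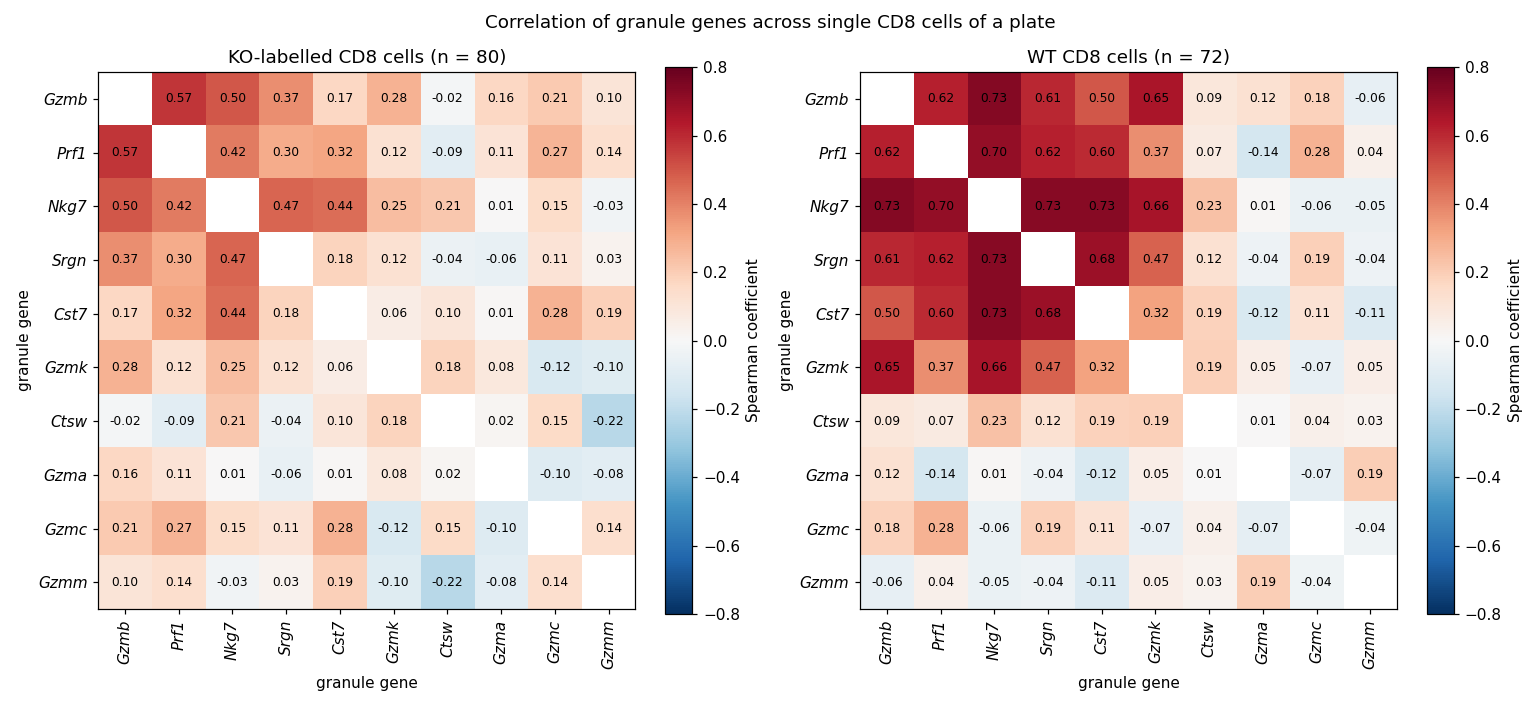
Spearman coefficient of each pair of granule genes across the single cells of the KO-labelled CD8 plate (left, 80 cells) and the WT CD8 plate (right, 72 cells), on a colour scale from -0.8 to 0.8. Gzmb, Prf1, Nkg7, Srgn and Cst7 form a block that is deeper on the WT plate (median 0.65) than on the KO-labelled plate (0.39), Gzmk joins it on the WT plate, and the Ctsw row is pale on both.

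Counted by cell, Gzmb, Prf1 and Nkg7 occurred together in 21 of the 80 KO-labelled CD8 cells, a share of 26.25% (17.04 to 37.3), while the WT CD8 plate had 40 of 72, a share of 55.6% (43.4 to 67.3). Of these, 6 KO-labelled and 34 WT cells also had Gzmk, and the KO-labelled cell with Ncr1 and without Cd3e is among the 6. The opposite state, Nkg7 without Gzmb and Prf1, was found in 30 KO-labelled (37.5%, 26.9 to 49.04) and 7 WT CD8 cells (9.72%, 3.999 to 19.01). Few cells lacked Nkg7 while having the others: 2 KO-labelled and 3 WT CD8 cells had Gzmb or Prf1 without it. The median number of members detected in a cell was 4 in KO-labelled and 6 in WT CD8 cells, and 10 KO-labelled and 33 WT cells had at least 7. That number had a Spearman coefficient with genes detected of 0.39 in KO-labelled and 0.76 in WT CD8 cells. Cells with Gzmb, Prf1 and Nkg7 had medians of 2831 (KO-labelled) and 4283 genes (WT), and those with Nkg7 alone of the 3 had 2518 and 2434. The part of yield in these counts, and in those by Tcf7, Pdcd1 and cycling below, was not tested. There were 7 WT CD8 cells with no member at all, which had 1071 to 1456 genes detected, a CD3 chain in all 7 and Cd8a in 4.

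The cells with Nkg7 but without Gzmb and Prf1 were mostly those with Tcf7, which encodes TCF-1, a transcription factor of naive, memory and stem-like T cells. Tcf7 was detected in 25 of the 30 KO-labelled and 6 of the 7 WT CD8 cells of this kind. Of the cells with all of Gzmb, Prf1 and Nkg7, 8 of 21 KO-labelled and 0 of 40 WT cells had it, where 0 leaves room for up to 7.50%. Pdcd1, the gene of the inhibitory receptor PD-1, was detected in 12 of these 21 KO-labelled and in all 40 WT cells, and 6 of the 21 and 27 of the 40 were cycling.

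Split by Tcf7, Gzmb was detected in 29.2% of the 48 KO-labelled CD8 cells with Tcf7 and in 56.25% of the 32 without it. In WT CD8 cells the shares were 9.09% of the 11 with Tcf7 and 81.97% of the 61 without. Ctsw ran the other way, at 97.9% with and 71.9% without Tcf7 in KO-labelled CD8 cells and at 100% with and 78.7% without in WT CD8 cells. Its intervals overlapped on the WT plate. By share Nkg7 ran this way too, at 95.8% with and 84.4% without in KO-labelled and 100% with and 80.3% without in WT CD8 cells. So did Srgn, at 89.6% with and 84.4% without in KO-labelled and 90.9% with and 80.3% without in WT CD8 cells. The mean log2(FPKM + 1) of Ctsw was 9.71 with and 7.14 without Tcf7 in KO-labelled and 9.74 with and 7.09 without in WT CD8 cells, while that of Nkg7 was 10.32 with and 9.87 without in KO-labelled and 10.23 with and 9.65 without in WT CD8 cells. The level of Ctsw thus followed Tcf7 by more than that of Nkg7 did on both plates. Gzmk was in 14.6% of KO-labelled CD8 cells with and 15.6% of those without Tcf7, and in 0 of 11 WT CD8 cells with Tcf7, which leaves room for up to 27.3%, and 63.9% of those without. The cells with Tcf7 had fewer genes detected on the WT plate, with medians of 2434 with and 3438 without it, than on the KO-labelled plate, with 2495 with and 2565 without. The strata fill differently, since 48 of 80 KO-labelled but 11 of 72 WT CD8 cells had Tcf7. Among cells with Tcf7 the KO-labelled minus WT difference was 1.51 for Gzmb and 1.20 for Gzmk, opposite to that over all cells but with 11 WT cells behind it, and for Ctsw it was -0.03. Among cells without Tcf7 it was -2.78 for Gzmb, -4.32 for Gzmk, -0.07 for Prf1 and 0.05 for Ctsw. For Prf1 it was -0.35 among cells with Tcf7.

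**Figure D3:**
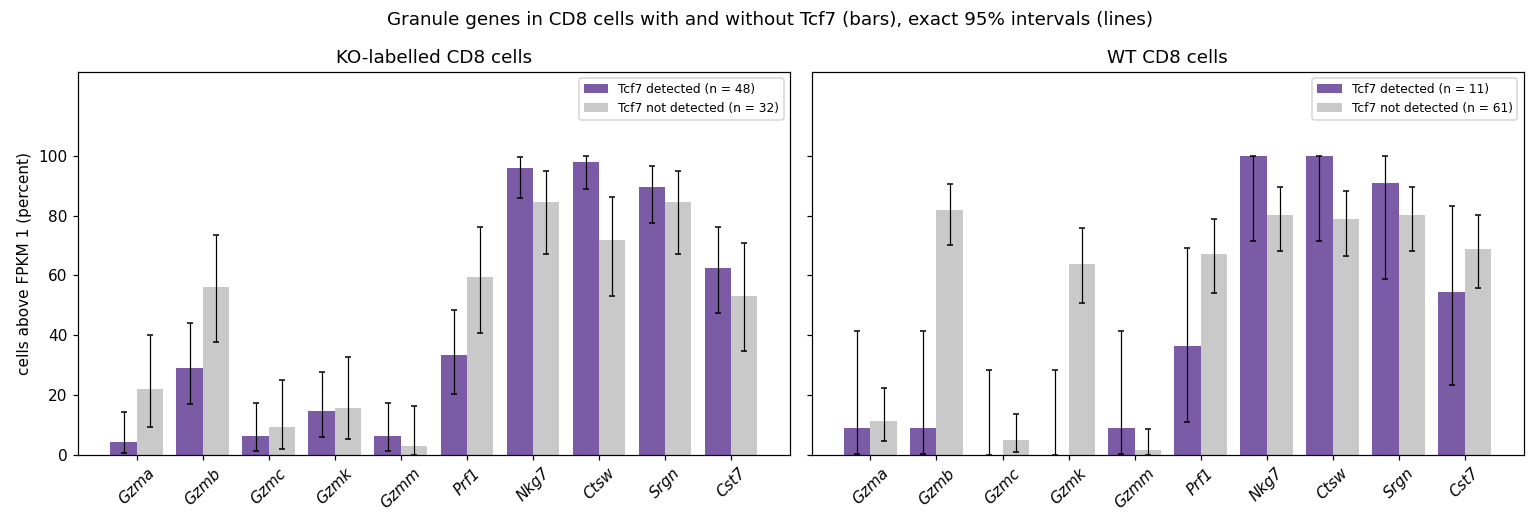
Share of CD8 cells above 1 FPKM for each granule gene (vertical axis, percent) in cells with Tcf7 (purple) and without it (grey), for KO-labelled (left, 48 and 32 cells) and WT CD8 cells (right, 11 and 61 cells), with exact 95% intervals as lines. Gzmb is rarer with Tcf7 on both plates (29.2% with and 56.25% without in KO-labelled, 9.09% with and 81.97% without in WT). Ctsw and Nkg7 are more frequent with it, with overlapping intervals in WT.

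Gzmb and Prf1 were found more often in cycling than in other CD8 cells on both plates, and Gzma was not. Of the cycling CD8 cells, 7 of 8 KO-labelled and 31 of 31 WT cells had Gzmb, and of the others 34.7% of 72 KO-labelled and 48.8% of 41 WT cells had it. Prf1 was in 7 of 8 cycling and 38.9% of other KO-labelled cells, and in 87.1% of cycling and 43.9% of other WT CD8 cells. Gzma was in 0 of 8 cycling and 9 of 72 other KO-labelled cells and in 2 of 31 cycling and 6 of 41 other WT CD8 cells. With Pdcd1, 57.7% of KO-labelled and 90% of WT CD8 cells had Gzmb, against 31.5% of KO-labelled and 27.3% of WT CD8 cells without it. Ctsw differed little by Pdcd1 in KO-labelled CD8 cells (84.6% with and 88.9% without). Cycling cells had more genes detected, with medians of 3998 in cycling and 2417 in other KO-labelled CD8 cells and 4580 in cycling and 2390 in other WT CD8 cells, and the part of this in the shares was not tested.

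In CD4 cells Gzmb was found mostly in the cells with Foxp3. It was detected in 29 of 42 KO-labelled CD4 cells with Foxp3 (69.05%, 52.9 to 82.4) and in 4 of 31 without it (12.9%, 3.63 to 29.8). On the WT plate it was in 15 of 27 CD4 cells with Foxp3 (55.6%, 35.3 to 74.5) and in 5 of 52 without it (9.62%, 3.20 to 21.0), so the intervals did not overlap on either plate. Cells with Foxp3 had more genes detected, with medians of 2268 with and 2123 without Foxp3 on the KO-labelled plate and 2404 with and 1891 without it on the WT plate, and the part of this in the shares was not tested. The Gzmb-bearing CD4 cells also had other markers of regulatory T cells: Il2ra, the gene of CD25, was in 32 of 33 under the KO label and in 15 of 20 in WT, against 42.5% (KO label) and 16.9% (WT) of the CD4 cells without Gzmb. Ikzf2, the gene of Helios, was in 27 of the 33 and 14 of the 20.

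The perforin gene was rare in CD4 cells with and without Foxp3. Prf1 was detected in 6 of 42 KO-labelled CD4 cells with and 1 of 31 without Foxp3, and in 4 of 27 WT CD4 cells with and 0 of 52 without it, which leaves room for up to 5.77%. The intervals with and without Foxp3 overlapped on both plates, and of the 4 WT cells with Prf1 2 had Gzmb. Gzmc was in 5 of 42 KO-labelled CD4 cells with and 0 of 31 without Foxp3, all 5 of them with Gzmb, the gene whose reads it can share. Srgn was in all KO-labelled CD4 cells, and in 96.3% of WT CD4 cells with and 75% of those without Foxp3. Cst7 was in 21.4% with and 16.1% without Foxp3 on the KO-labelled plate and in 48.1% with and 9.62% without it on the WT plate.

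Nkg7 and Ctsw were found in CD4 cells with and without Foxp3. Nkg7 was in 19.05% of KO-labelled CD4 cells with (8.60 to 34.1) and 38.7% without Foxp3 (21.9 to 57.8), and in 40.7% of WT CD4 cells with (22.4 to 61.2) and 48.1% without it (34.01 to 62.4). Ctsw was in 21.4% with and 38.7% without Foxp3 on the KO-labelled plate and in 40.7% with and 34.6% without it on the WT plate. For both genes the intervals with and without Foxp3 overlapped. Gzma and Gzmk were in no CD4 cell with Foxp3, 0 of 42 KO-labelled and 0 of 27 WT cells, which leaves room for up to 7.14% and 11.1%.

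**Figure D4:**
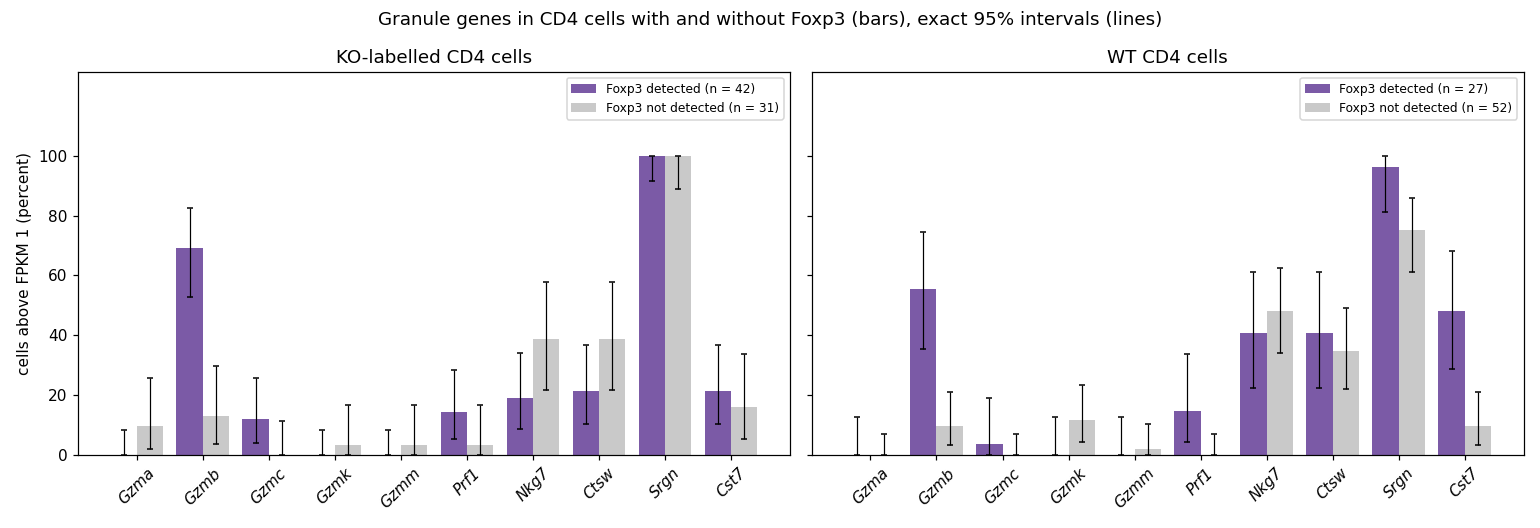
Share of CD4 cells above 1 FPKM for each granule gene (vertical axis, percent) in cells with Foxp3 (purple) and without it (grey), for KO-labelled (left, 42 and 31 cells) and WT CD4 cells (right, 27 and 52 cells), with exact 95% intervals as lines. Gzmb is more frequent with Foxp3 on both plates (69.05% with and 12.9% without in KO-labelled, 55.6% with and 9.62% without in WT), Nkg7 and Ctsw have overlapping intervals, and Srgn is high throughout.

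The genotype differences in CD4 cells were not spread evenly over the cells with and without Foxp3. Foxp3 itself was in 42 of the 73 cells of the KO-labelled plate and 27 of the 79 of the WT plate. Gzmb differed by 2.27 (7.65 in KO-labelled and 5.39 in WT) among CD4 cells with Foxp3 and by -0.02 (0.89 and 0.90) among those without it. Nkg7 differed by -3.00 (1.53 and 4.54) with Foxp3 and by 0.04 (4.40 and 4.36) without. Srgn went the other way, with 0.86 (11.45 and 10.59) with and 3.52 (10.46 and 6.94) without Foxp3. Within the strata, the higher Gzmb and lower Nkg7 of the KO-labelled plate were thus found among its Foxp3 cells, and the larger Srgn difference among the others. The Gzmb difference over all CD4 cells also carries the larger share of Foxp3 cells on the KO-labelled plate, since Gzmb was higher with Foxp3 on both plates. The size of that part and the differences between strata were not tested.

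Gzmb and Nkg7, which went together in CD8 cells, were less closely related in CD4 cells, a difference that was not tested. Their Spearman coefficient was 0.01 across the 73 KO-labelled and 0.24 across the 79 WT CD4 cells. Nkg7 was in 30.3% of KO-labelled CD4 cells with Gzmb and 25% of those without, and in 60% of WT CD4 cells with Gzmb and 40.7% of those without. Of the 23 KO-labelled CD4 cells with Gzmb and without Nkg7, 22 had Foxp3 and all 23 had Il2ra, and of the 8 such WT cells 7 had Foxp3. Of the cells with Nkg7 and without Gzmb, Foxp3 was in 1 of 10 on the KO-labelled plate and 3 of 24 on the WT plate. Cells with both genes, 10 KO-labelled and 12 WT, had Foxp3 in 7 and 8 cases, and 11 of the 12 WT ones had the chemokine gene Ccl5. The WT cells with Nkg7 alone had Tcf7 in 14 of 24, the chemokine receptor gene Cxcr3 in 21 and Ctsw in 15, and Ctsw was in 8 of the 10 such KO-labelled cells. Nkg7 and Ctsw went together in CD4 cells, with a Spearman coefficient of 0.53 in KO-labelled and 0.42 in WT cells and a Pearson coefficient on the log2 scale of 0.54 and 0.41.

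**Figure D5:**
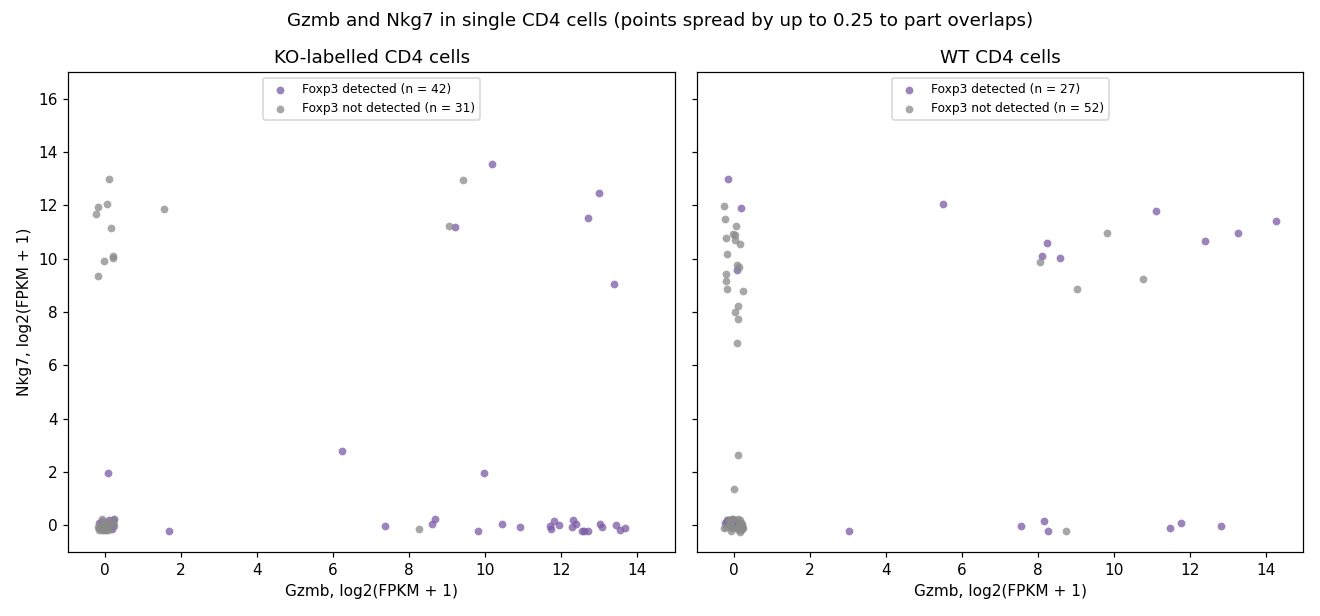
Gzmb (horizontal axis) and Nkg7 (vertical axis), both as log2(FPKM + 1), in single KO-labelled (left) and WT CD4 cells (right), coloured by detection of Foxp3. The cells along the Gzmb axis nearly all have Foxp3 (22 of 23 KO-labelled, 7 of 8 WT), and those along the Nkg7 axis mostly lack it (1 of 10 and 3 of 24 have it).

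A few CD4 cells carried granzymes of another kind without Foxp3. Of the 3 KO-labelled CD4 cells with Gzma, 1 had 7242 FPKM of Gzma, 643 of Gzmb, 8286 of Nkg7 and 2849 of Ctsw, with Cd4 at 0 and Cd3e at 375.9 FPKM. The other two had 387 and 788 FPKM of Gzma, had Cd4 (317.8 and 275.3 FPKM), and had the natural killer receptor gene Klrd1 at 887 and 2160 FPKM. Gzmk was in 6 WT CD4 cells at 198.4 to 621 FPKM, all of them with Cd4 and without Gzmb, and 5 of the 6 with Nkg7. Cd8a, Ncr1, Klrb1c, Zbtb16 and Sox13, markers of CD8, natural killer, natural killer T and gamma-delta T cells, were at 0 in all of these cells, while Trdc and Tcrg-C1 were not analysed here. Genes of the other coreceptor were found at low levels. Cd8a was in 4.11% and 5.06% of KO-labelled and WT CD4 cells (means of 0.34 and 0.76 FPKM), Cd8b1 in 28.8% and 30.4% of them (means of 3.49 and 25.5 FPKM), and Cd4 in 5.56% of WT CD8 cells (mean of 5.17 FPKM). The shares of CD4 cells with Gzma, Gzmk or Prf1 lie within or below this range of shares. Their means in KO-labelled and WT CD4 cells were 115.3 and 0 FPKM for Gzma, 13.8 and 32.8 for Gzmk and 45.6 and 24.4 for Prf1. A common source of these detections was not tested.

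Partners of the members were ranked apart in each lineage, among genes in at least 20% of the cells of both its plates. The candidate genes thus differ between the lineages. Foxp3, in 1 of 80 KO-labelled and 0 of 72 WT CD8 cells, could be a partner in CD4 cells only. Among 4691 genes in CD8 cells, those with the highest mean of the coefficients of both plates were Map2k3 (0.59), Lgals1 (0.58) and Actg1 (0.57) for Gzmb, Tnfrsf9 (0.60), Ldha (0.57) and Gapdh (0.56) for Prf1, and Pfn1 (0.74), Tmsb4x (0.68) and Lcp1 (0.66) for Nkg7. Tnfrsf9 encodes the costimulatory receptor 4-1BB, Ldha and Gapdh glycolytic enzymes, and Actg1, Pfn1, Tmsb4x and Lcp1 actin or proteins that bind it. For Gzmk they were Il10ra (0.51), Rab27a (0.51), the gene of a GTPase needed for granule release, and Tmsb4x (0.51), and for Srgn Bcl2a1d (0.64), Pfn1 (0.63) and Gm5177 (0.63). Cst7 had Tpi1 (0.55), Rps15a (0.53) and Slc25a3 (0.53), while Ctsw reached only 0.39 with Hcst and Pydc4 and 0.38 with Ly6c2. The rare Gzma (at most 0.28, with Gm4070, BC017643 and Ccr2), Gzmc (0.40, with Ptger2, then Spata2 and Pglyrp1) and Gzmm (0.33, with Sh3glb2, then Snrnp40 and Tollip) had weak ones.

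Among 3520 genes in CD4 cells Gzmb was closest to Pglyrp1 (0.62), Foxp3 (0.57) and Tnfrsf9 (0.54). Nkg7 was closest to Ccl5 (0.53), Anxa2 (0.42) and Lgals1 (0.40), and Ctsw to Ccl5 (0.55), Grina (0.40) and the death ligand gene Fasl (0.34). Srgn was closest to Tnfrsf9 (0.51), Il2ra (0.50) and Itgav (0.50). Gzmb and Srgn thus shared a partner, and Nkg7 and Ctsw another. The cells of a plate share its preparation and differ in yield, and these coefficients were neither adjusted for yield nor tested.

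Other genes of the granule pathway, taken one by one, differed in both directions. In CD8 cells, of 15 measured genes of granule release (16 listed), Vamp8, a vesicle fusion gene, had -2.33 and Rab27a -2.21 (KO-labelled minus WT) and Lamp1, a granule membrane gene, had 1.55, but -0.40 in the wells, and the list median was -0.57, beside -0.46 over all genes. Of 8 measured genes of granule processing and protease control (11 listed), the cathepsin gene Ctsb (-1.73) and the protease inhibitor gene Serpinb6a (-1.91) were lower and none was higher, with a list median of -0.80. In the wells Ctsb had -0.29 and Serpinb6a -0.05. Of 17 measured regulators (19 listed) 4 were lower, among them Runx3 (-2.03), Batf (-1.61) and Eomes (-1.56), transcription factors of effector T cells, and 2 were higher, the largest being Tcf7 (3.35). The well differences were -0.25 for Runx3, -1.75 for Batf, -1.69 for Eomes and 1.65 for Tcf7. Of 9 death ligand and cytokine genes the chemokine genes Ccl3 (-1.64), Ccl4 (-1.52) and Ccl5 (-1.04) were lower and Xcl1 (1.90) was higher. Ccl3 (0.60) and Ccl4 (0.63) had the opposite sign in the wells, where Ccl5 had -0.51 and Xcl1 3.07. In cells paired on genes detected, Ccl3 had 0.16, Ccl4 -0.10, Ccl5 -1.65 and Xcl1 2.36. The counts in each list stand against 19.5% lower and 3% higher of all genes compared in CD8 cells. They are too few to read anything about a list.

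In CD4 cells (KO-labelled minus WT) 1 of 8 protease control genes was higher, the cathepsin inhibitor gene Cst3 (2.17), and 1 was lower, the cathepsin gene Ctsd (-1.39). Of 15 release genes Stx11 (1.03), which encodes a syntaxin needed for granule fusion, was higher. Of 17 regulators Nfil3 (1.29) was higher and Tcf7 (-1.75) lower, and of 9 death ligand and cytokine genes Tnf (1.85) was higher. These counts stand against 8.75% higher and 1.51% lower of all genes compared in CD4 cells, so they are too few to read anything about a list. Between the lineages, 6 of 17 regulators were lower in WT CD4 than in WT CD8 cells, among them Runx3 (-3.15), Eomes (-2.42) and Tbx21 (-2.26), and Tcf7 was higher (2.16), against 37.2% lower and 2.16% higher of all genes. Among KO-labelled cells 3 of 17 were lower and 2 higher, against 11.1% and 4.63% of all genes. There Tcf7 had -2.94 and Tbx21 -2.35, while Runx3 (-0.59) and Eomes (-0.88) were within 1. Ccl5 was lower in CD4 cells of both labels (-6.21 in KO-labelled and -6.28 in WT cells). The inhibitor Serpinb6b was also lower in CD4 cells of both labels (-2.15 in KO-labelled and -3.01 in WT cells), and Fasl had -2.64 and -2.61.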

How the data were processed

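RNA was measured by Smart-seq2, a plate-based protocol, in 94 single cells and 1 population well of each of 4 plates. The values are FPKM, made by the authors with Bowtie and RSEM on mm10 (versions not given in the sources used here), per the submitters' processing notes, and scaled between libraries by TMM factors, per the labels. RSEM divides reads between similar genes, which touches the granzymes. All 380 columns matched a label, 0 were left unmatched, and 0 libraries were identical.

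Cells with at least 1000 genes above FPKM 1 were kept. Groups were compared by the mean of log2(FPKM + 1) over kept cells, a scale on which low genes change less than in FPKM. Genes were compared if 20% or more of the kept cells of either group had them, list genes if 10% or more of the cells of a plate did, and a difference of at least 1 counted as higher or lower. No test was run: there is 1 plate per group, cells are not replicates, and no p-value was derived. Intervals are exact at 95%, and beside a share of 0 stands the limit set by 3 cells. Correlations are Spearman's within a plate. Cells were paired on genes detected within 0.1 on the log2 scale. Pairs of libraries share no replicate number.

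The members and gene lists were chosen with earlier results of these data known. All 10 members are named, at most 4 genes of each other list and comparison, those of largest difference, and the 3 genes of highest mean coefficient with each member. The strata by Tcf7 and Foxp3 of the genotype differences, the combinations of genes in a cell, and the differences without cells that carry natural killer receptor genes were added after seeing the data. The calculations were checked on simulated data. Python 3.11.15, pandas 2.3.3, numpy 2.4.6, scipy 1.17.1 and matplotlib 3.10.9 were used.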

Additional observations from a re-analysis of the deposited data

Results flagged for a closer look

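The KO-labelled minus WT difference of Gzmb (mean log2(FPKM + 1)) had opposite signs in the lineages. It was -3.66 in CD8 cells, with 3.78 in KO-labelled and 7.44 in WT cells, and 2.35 in CD4 cells, with 4.78 in KO-labelled and 2.44 in WT cells. The population wells had the same signs, -1.06 for CD8 and 2.97 for CD4. The difference between the lineages was not tested, since each group is 1 plate, and the WT CD4 plate carries p2 in its titles where the other 3 carry p1.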

How the results depend on the processing

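No paired analysis was possible because library numbers are not shared between plates. Of the recomputed answers to the comparisons 77.97% stayed the same and 26 moved, and of 398 recomputed member differences, leaving aside the added alternatives below, 64 moved across a difference of 1 and 24 changed sign, of which 2 had a difference of at least 1 to begin with. In CD8 cells (KO-labelled minus WT) the number of members higher, 1, became 0 with at least 2000 genes or a pseudocount of 10, 2 with a pseudocount of 0.1, and 3 with no filter on cells, without cells above 4000 genes, without cycling cells or by the ratio of mean FPKM, and the number lower, 3, became 1 by that ratio. The number higher also became 0 without cells that had Ncr1 or Klrb1c, an alternative added after seeing the data. In CD4 cells the number higher, 2, became 4 in the wells, and the number lower, 1, became 3 in cells paired on genes detected. For CD4 minus CD8 the number higher among WT cells, 0, became 1 with no filter on cells, without cells above 4000 genes, in paired cells and without cycling cells. Among KO-labelled cells, 1 became 2 under the last 3 of these, with at least 2000 genes, with a pseudocount of 0.1 and by the ratio. The cause was not tested.

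The median of the 45 pairs in CD8 cells was -0.032 (KO-labelled) and -0.042 (WT) when cells at 0 for both genes were left out, which removes joint absence by construction. In WT cells it was 0.30 without cells above 4000 genes and 0.32 without cycling cells. Of 8 pairs recomputed on both plates, 46 values moved by 0.1 or more and 11 changed sign, none of them of a coefficient of at least 0.3. In cells with at least 2000 genes, Gzmb was in 84% of KO-labelled CD4 cells with Foxp3 and in 0 of the WT CD4 cells without it, and 7 shares by Foxp3 moved in all.

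Among differences of at least 1, signs turned for Prf1 in CD8 cells (0.74 in paired cells) and Nkg7 in CD4 cells (0.23 by the ratio of mean FPKM). Smaller ones that turned include Nkg7 (-0.26 in the wells, -0.42 by the ratio), Cst7 (0.71 in paired cells) and Gzmc (-2.71 in the wells) in CD8 cells. In alternatives added after seeing the data, they turned for Gzmb (1.51), Gzmk (1.20) and Ctsw (-0.027) in CD8 cells with Tcf7, and for Gzmb (-0.015) and Nkg7 (0.038) in CD4 cells without Foxp3. The log2 ratio of mean Gzma in CD8 cells was 2.11, and -0.23 without the highest KO-labelled cell. Genes seen in a few cells, such as Gzma, Gzmc and Gzmm, are limited by the number of cells.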
